A study of Mus musculus with 6 samples.

Results

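The clustered histone genes are protein-coding genes that mostly encode the replication-dependent histones. Of the 21755 protein-coding genes of the GENCODE vM21 annotation (mouse build mm10), 67 belonged to them. Members were taken by symbol, as every protein-coding gene whose name starts with Hist1h, Hist2h, Hist3h or Hist4, with no measured value used. By class they were 6 linker histone H1 genes, 18 H2A genes, 18 H2B genes, 12 H3 genes and 13 H4 genes. They lay in 5 places: 10 genes on chromosome 3 (Hist2), 1 on chromosome 6 (Hist4h4), 2 on chromosome 11 (Hist3), and 2 blocks on chromosome 13 (Hist1) with 23 and 31 genes.

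Nucleosomes wrap DNA around an octamer of the core histones H2A, H2B, H3 and H4, and linker histone H1 binds where the DNA enters and leaves. The clustered genes make most of this protein during DNA replication, are transcribed in histone locus bodies organized by NPAT, and yield mRNAs that end in a conserved stem-loop in place of a poly(A) tail. Many H2A and H2B genes are arranged head to head and share 1 promoter region. AMs are tissue-resident cells that renew themselves locally at a slow rate, so most of them are outside S phase at any time.

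H3K27ac, the acetylation of histone H3 at lysine 27 that marks active promoters and enhancers, was mapped by HT-ChIPmentation in AMs sorted from the bronchoalveolar lavage of adult WT C57BL/6J mice. The series held 6 samples, of which 3 were H3K27ac libraries and 3 were inputs without antibody. Of the H3K27ac libraries, 1 was made with an Active Motif antibody and 2 (replicates 1 and 2) with a Cell Signaling antibody. Antibody, sequencing run, read length and sequencing depth, which the study lists apart from the peaks, changed together between the antibodies and cannot be told apart. The study's methods name 2 sonication instruments for H3K27ac and do not say which antibody went with which. The instrument may thus have changed as well. Nothing in the labels ties each replicate to its own animals. No test was therefore made, and all differences below are descriptions of 3 peak lists.

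The lists held 36364 (Active Motif), 56175 (Cell Signaling replicate 1) and 49139 (replicate 2) peaks, covering 1.02%, 1.79% and 2.34% of the genome. Read depth behind single peaks was not given in these lists. All 10 AM markers, among them Siglecf, Marco, Pparg and Fabp4, had a promoter peak in every library. Of 8 airway epithelial markers, 1, 7 and 1 had a promoter peak in the Active Motif library, replicate 1 and replicate 2, of 8 alveolar epithelial markers 0, 4 and 0, of 4 neutrophil markers 0, 1 and 1 (S100a8, with folds of 8.46 and 18.3), and of 6 T and B cell markers none. The part of the cells behind these epithelial and neutrophil peaks in the histone values was not tested. The 10 genes of dividing cells had a promoter peak for 3, 10 and 10 genes, at median percentiles of 20.3 to 34.6 among all genes with a peak.

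The promoters that the values below turn on are shown first, read from the mm10 genome on the strand named, 5′ to 3′, and each lies directly before an annotated start. Capitals mark matches on either strand to the TATA box (TATAAA), the motif CCAAT (bound by NF-Y), ATGCAAAT (the octamer, bound by OCT1), GGTCCG (the core of site II of H4 promoters, read by HINFP) and AAACACA (the AC box of H1 promoters). No motif contains the letters of another.

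The first 2 are the shared stretch between the starts of Hist2h2ac and Hist2h2be, the head-to-head pair with the highest mean percentile of fold (explained with the fold values) (chr3:96220881-96221118, plus strand), and the bases upstream of Hist1h2ah, 1 gene of the marked pair with the lowest (chr13:22035569-22035818, minus strand).
Hist2h2ac/Hist2h2be: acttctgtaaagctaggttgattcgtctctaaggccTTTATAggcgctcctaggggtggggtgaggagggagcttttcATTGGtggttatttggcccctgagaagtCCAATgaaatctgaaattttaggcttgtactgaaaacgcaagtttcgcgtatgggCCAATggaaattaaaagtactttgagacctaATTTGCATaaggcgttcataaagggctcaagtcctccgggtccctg
Hist1h2ah: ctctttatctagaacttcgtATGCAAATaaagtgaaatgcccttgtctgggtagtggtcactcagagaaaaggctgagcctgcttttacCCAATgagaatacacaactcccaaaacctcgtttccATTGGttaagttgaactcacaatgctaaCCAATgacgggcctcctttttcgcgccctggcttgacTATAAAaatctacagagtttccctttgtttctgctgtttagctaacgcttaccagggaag

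The next 2 belong to the H4 gene with the strongest peaks, Hist1h4h (chr13:23530800-23531049, plus strand), and to an H4 gene without a peak in the Active Motif library, Hist1h4j (chr13:21734814-21735063, plus strand).
Hist1h4h: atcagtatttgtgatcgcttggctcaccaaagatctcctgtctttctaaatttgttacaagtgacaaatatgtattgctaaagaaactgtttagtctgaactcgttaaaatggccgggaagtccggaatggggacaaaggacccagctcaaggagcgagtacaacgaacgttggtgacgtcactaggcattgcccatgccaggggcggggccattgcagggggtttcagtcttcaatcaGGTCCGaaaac
Hist1h4j: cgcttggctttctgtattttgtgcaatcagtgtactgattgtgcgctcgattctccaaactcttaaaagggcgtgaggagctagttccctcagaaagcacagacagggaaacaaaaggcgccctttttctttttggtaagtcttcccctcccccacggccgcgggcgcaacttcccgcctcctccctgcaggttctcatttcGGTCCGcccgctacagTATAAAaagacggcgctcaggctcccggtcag

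Then come the H1 gene with the strongest peaks, Hist1h1c (chr13:23738558-23738807, plus strand), and the testis-type genes Hist1h1t (chr13:23695564-23695813, plus strand) and Hist1h2ba (chr13:23934157-23934406, minus strand), which replace somatic histones during sperm development.
Hist1h1c: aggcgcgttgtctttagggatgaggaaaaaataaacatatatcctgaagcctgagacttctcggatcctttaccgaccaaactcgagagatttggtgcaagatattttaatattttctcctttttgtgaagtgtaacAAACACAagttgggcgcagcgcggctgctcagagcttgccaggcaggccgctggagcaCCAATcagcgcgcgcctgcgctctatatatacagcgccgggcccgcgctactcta
Hist1h1t: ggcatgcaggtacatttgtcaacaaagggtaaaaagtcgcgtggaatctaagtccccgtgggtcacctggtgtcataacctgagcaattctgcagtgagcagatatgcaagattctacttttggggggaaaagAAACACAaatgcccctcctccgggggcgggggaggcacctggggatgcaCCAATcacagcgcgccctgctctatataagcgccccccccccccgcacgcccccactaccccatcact
Hist1h2ba: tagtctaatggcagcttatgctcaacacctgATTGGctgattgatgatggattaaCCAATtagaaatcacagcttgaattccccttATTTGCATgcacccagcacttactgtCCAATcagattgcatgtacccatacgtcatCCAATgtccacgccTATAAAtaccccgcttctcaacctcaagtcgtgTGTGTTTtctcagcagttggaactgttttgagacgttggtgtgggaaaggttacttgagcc

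The last is the stretch between Hist1h2ap and Hist1h2br (chr13:21833508-21833742, plus strand), a pair without a peak in any library, shown because it exists in a second copy. Read on the opposite strand, all 235 of its bases were identical to bases between Hist1h2bq and Hist1h2ao in the same block.
Hist1h2ap/Hist1h2br: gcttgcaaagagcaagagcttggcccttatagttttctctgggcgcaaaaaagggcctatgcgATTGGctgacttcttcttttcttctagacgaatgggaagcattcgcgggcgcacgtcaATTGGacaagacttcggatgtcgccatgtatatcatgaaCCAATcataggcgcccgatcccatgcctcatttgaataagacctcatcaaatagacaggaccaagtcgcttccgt

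Histone genes carried promoter peaks more often than protein-coding genes as a whole. A promoter peak is a peak that overlaps the 1 kb on either side of any annotated start of the gene by at least 1 base. In the Active Motif library 55 of 67 histone genes (82.1%) had one, beside 40.9% of all protein-coding genes. In Cell Signaling replicate 1 the count was 60 (89.6%) beside 47.9%, and in replicate 2 it was again 60 beside 48.9%. All 55 genes of the Active Motif library were among the 60, so that 55 histone genes had a peak in all 3 libraries, beside 40.8% of all genes. In both Cell Signaling replicates but not in the Active Motif library, 5 histone genes (7.46%) had a peak, beside 5.69% of all genes. The remaining 7 (10.4%) had none in any library, beside 49.8% of all genes.

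Neighbours often shared a peak, so the genes were not independent counts. The peaks over histone promoters numbered 67, 79 and 66 in the 3 libraries, and 35, 35 and 37 genes had the same strongest peak as another member. Hist2h2ab, Hist2h2ac and Hist2h2be, which encode H2A and H2B, lay under 1 common peak in every library. A single annotated start was listed for 63 of the 67 genes, beside 48.9% of all protein-coding genes.

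The strength of a promoter was read from the fold enrichment at the summit of its strongest peak, as the peak caller gave it. Fold values are not on one scale in different libraries, so each is also given as a percentile among all genes with a promoter peak in the same library. Strongest and weakest genes below are those with the highest and lowest mean percentile over the 3 libraries, and the order can differ in a single library. For a gene without a peak in every library, the mean is over the libraries with a peak. The median histone gene had folds of 13.6 (Active Motif), 26.5 (replicate 1) and 35.1 (replicate 2), beside 11.1, 19.2 and 26.9 over all genes with a peak. As percentiles the histone medians were 62.5, 65.3 and 70.8. Above the median gene of the library stood 37 of 55, 44 of 60 and 46 of 60 histone genes. Over the 55 genes with a peak in all libraries, which share peaks and libraries, Spearman's rho of the folds was 0.91 between Active Motif and replicate 1, 0.77 between Active Motif and replicate 2, and 0.74 between the replicates.

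**Figure D1:**
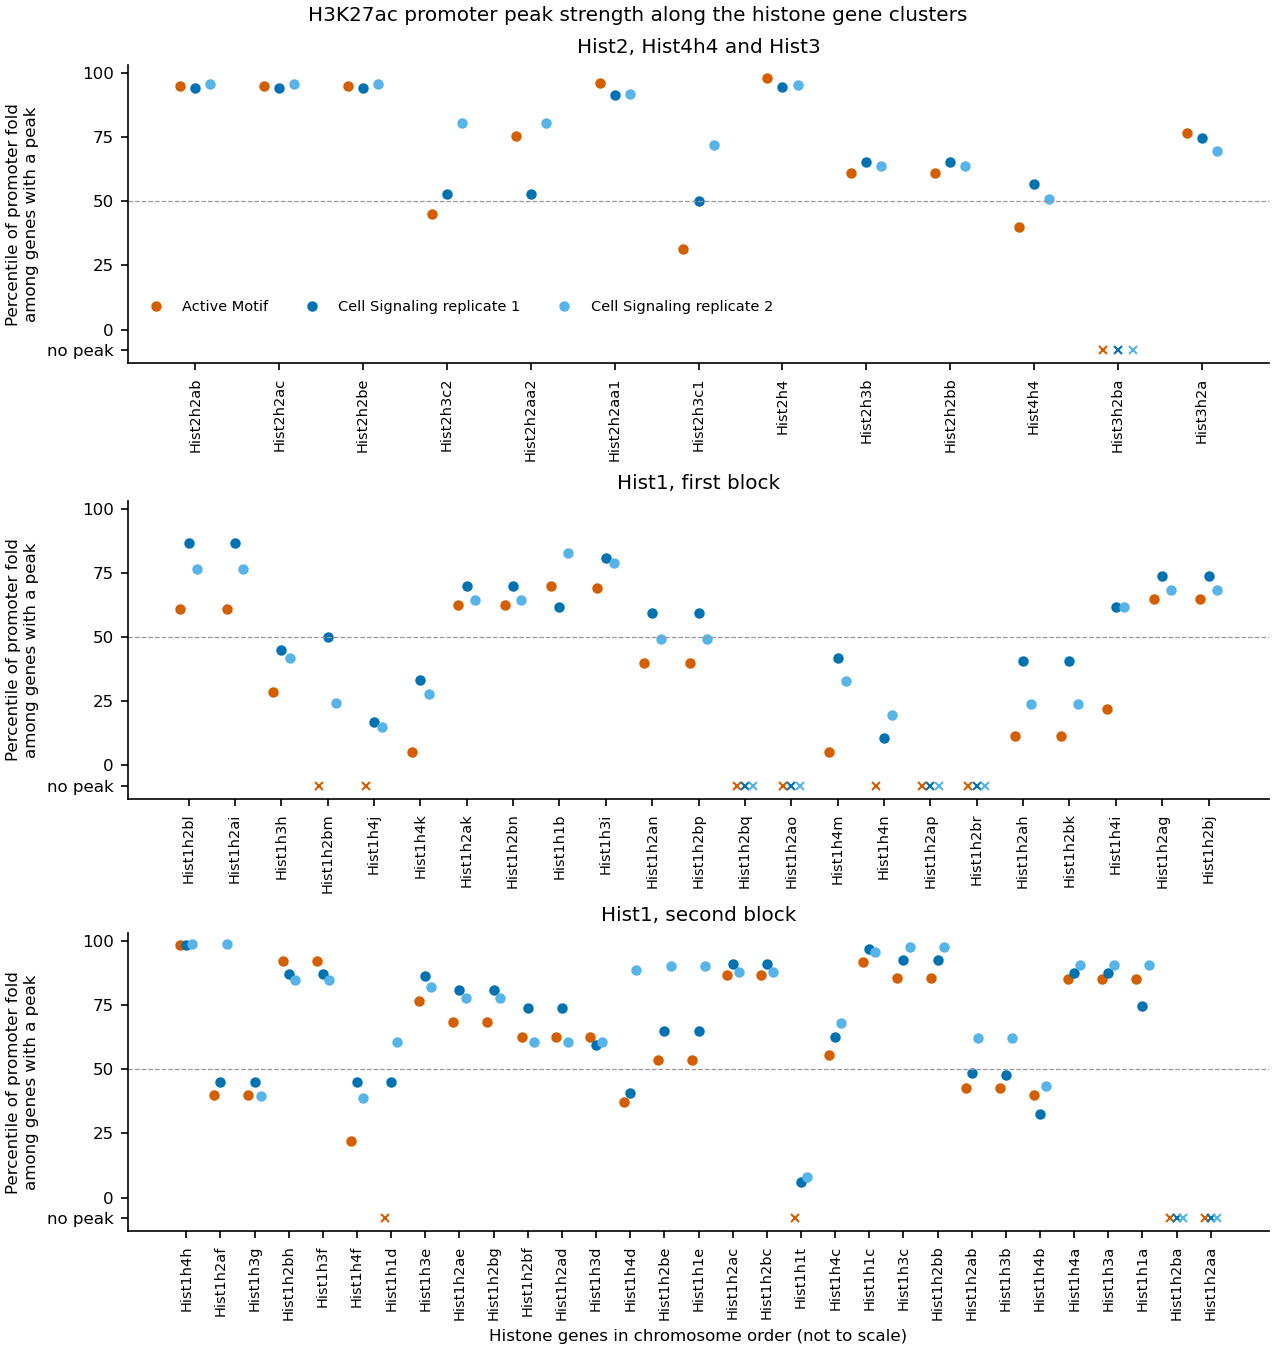
Percentile of the promoter fold (y axis, among all protein-coding genes with a peak in that library) for each histone gene in chromosome order (x axis), with circles coloured by library and crosses for genes without a peak. The dashed line is the median gene. Hist2 genes and the second Hist1 block reach the top of the scale, and the crosses in all 3 colours are the 7 unmarked genes.

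In the Hist2 cluster all 10 genes had a promoter peak in every library, at median percentiles of 85.2, 78.3 and 86.1. By mean percentile Hist2h4, an H4 gene, led with folds of 33.2, 53.4 and 49.5 in the Active Motif library, replicate 1 and replicate 2, at 95.9. The peak shared by Hist2h2ab, Hist2h2ac and Hist2h2be followed with folds of 28.5, 53.0 and 49.6. The part of it between the starts of Hist2h2ac and Hist2h2be, printed first above, holds 1 octamer, 1 TATA box and 3 CCAAT boxes in 238 bases. The lowest mean percentiles of the cluster were those of the H3 genes Hist2h3c1, with folds of 8.10, 19.2 and 35.7, and Hist2h3c2, with folds of 10.2, 20.4 and 39.7. Both are near copies of each other, and only 21.5% and 22.4% of the 50-base windows around their starts occur once in the genome. Neither the start nor any coding base of Hist2h3c1 and Hist2h3c2 was under a peak in any library. With a window of 250 bp both had no peak. The folds of Hist2h3c2 in replicates 1 and 2 were also those of its neighbour Hist2h2aa2. Hist2h3b and Hist2h2bb shared folds of 13.2, 26.5 and 32.4, the last of which was the lowest fold of the cluster in replicate 2.

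The single gene Hist4h4 on chromosome 6 had folds of 9.38, 22.3 and 27.3, at a mean percentile of 49.2. On chromosome 11 the H2A gene Hist3h2a had folds of 17.5, 32.3 and 34.6. Its neighbour Hist3h2ba, an H2B gene that starts at position 58948920, had no peak in any library although 93.1% of the 50-base windows around its start were unique. Hist3h2a shares its annotated start with Trim17, a gene for a ubiquitin ligase, and the promoter signals of both cannot be told apart.

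In the second Hist1 block 27 of 31 genes had a peak in all 3 libraries, at median percentiles of 68.4, 73.7 and 84.8 among those with a peak. Hist1h4h had the highest mean percentile of all 67 genes, with folds of 34.9, 65.0 and 54.2, and was above 98.4% of the genes with a peak in replicate 1. Hist1h1c, a linker histone gene, followed with folds of 25.1, 60.0 and 49.8. Hist1h3c and Hist1h2bb shared a peak with folds of 21.1, 50.2 and 52.4. The weakest genes of this block with a peak in all libraries were Hist1h4f (6.82, 17.3 and 22.3), Hist1h4b (9.38, 12.9 and 24.3) and Hist1h3g (9.38, 17.3 and 22.7). Hist1h4f and Hist1h4h are both H4 genes of this block and stood at mean percentiles of 35.2 and 98.6.

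The first Hist1 block was lower and more uneven. Of its 23 genes 16 had a peak in all 3 libraries, 3 in both Cell Signaling replicates only and 4 in none, and the median percentiles were 50.5, 59.3 and 49.5. By mean percentile Hist1h3i stood first with folds of 15.03, 36.9 and 38.8, although it had the highest fold of the block in no single library, and the pair Hist1h2bl and Hist1h2ai followed with 13.2, 42.7 and 37.9. At the lower end Hist1h4k had folds of 4.69, 13.1 and 17.9. The pair Hist1h2ah and Hist1h2bk had folds of 5.54, 15.8 and 16.2, and the H4 gene Hist1h4m had 4.69, 16.1 and 19.9. Hist1h1b had the highest fold of this block in the Active Motif library and in replicate 2, 15.3 and 40.8. The Active Motif value was below the highest folds of Hist2 and of the second block, 33.2 and 34.9. Within 1 kb of the starts of Hist1h1b, Hist1h4k and Hist1h4m, Active Motif peaks covered 216, 191 and 192 bases. All of these bases lay after the start, and no coding base of these genes was under an Active Motif peak. With a window of 500 bp Hist1h1b and Hist1h4m no longer had a peak in all libraries.

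**Figure D2:**
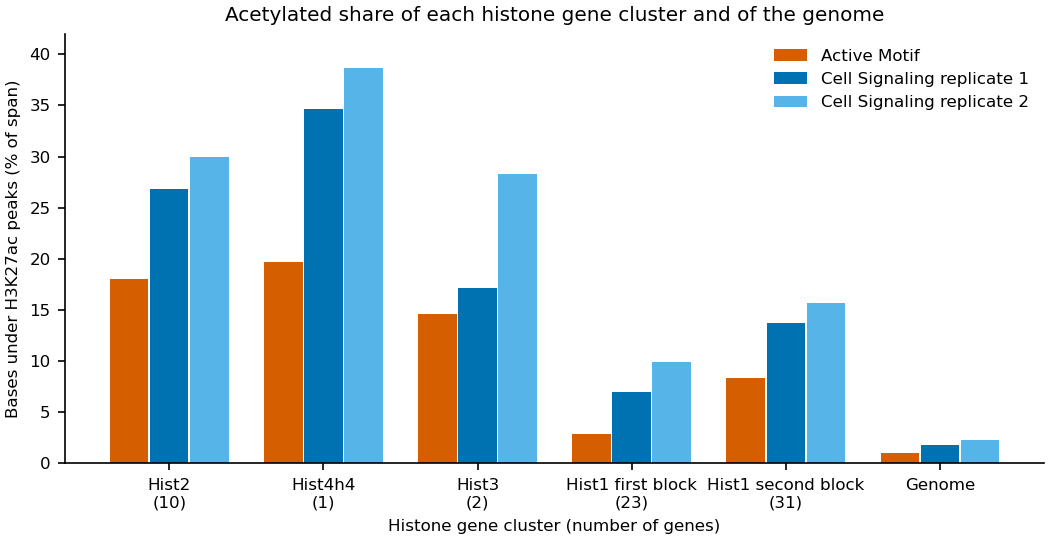
Share of each cluster's span lying under H3K27ac peaks (y axis, percent of bases from 0) by cluster with its number of genes and for the genome, with 1 bar per library and no error bars because each bar is 1 library. Every cluster is above the genome's 1.02%, 1.79% and 2.34%, and the first Hist1 block is the lowest cluster in each library.

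By share of acetylated bases the first Hist1 block was the lowest when taken whole, but not in all of its parts. Between the outermost genes of each cluster, with 1 kb added at either end, peaks covered 18.0%, 26.8% and 29.9% of Hist2 in the Active Motif library, replicate 1 and replicate 2. The shares were 19.7%, 34.7% and 38.6% around Hist4h4 and 14.6%, 17.2% and 28.3% in Hist3. They were 2.86%, 7.01% and 9.93% in the first Hist1 block and 8.32%, 13.7% and 15.7% in the second. Both Hist1 blocks contain long stretches without histone genes. Where they were split at gaps over 50 kb, the first block gave a long stretch from Hist1h2bl to Hist1h2br with 5.54%, 12.2% and 16.2% and a short one from Hist1h2ah to Hist1h2bj with 14.5%, 41.1% and 53.3%, the highest share of all stretches in both Cell Signaling libraries. In the second block the stretch from Hist1h4h to Hist1h1e held 18.7%, 30.4% and 34.1% and the one from Hist1h2ac to Hist1h1a held 19.2%, 31.6% and 36.9%. The testis-type genes Hist1h2ba and Hist1h2aa formed a stretch of their own with 0% in every library. Most of the acetylated bases stood at the genes. In the second block 77.3%, 69.0% and 66.1% of them lay within 1 kb of a histone start or start codon, which made up 13.2% of the span. The longest single stretch was 6184 bases in replicate 2, also in the second block.

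Inside the cluster spans lay 11 other protein-coding genes. Of these, 3 had a promoter peak in all libraries, beside 40.8% of all protein-coding genes, and 7 had none in any, beside 49.8%. Bola1 and Trim17 start 156 bases or less from a histone start and share its peak. Hfe, which regulates iron uptake, starts 12260 bases from the nearest histone start and had folds of 7.33, 21.9 and 31.8. The solute carrier genes Slc17a1, Slc17a2, Slc17a3 and Slc17a4, as well as Trim38, Prss16 and Pom121l2, had none. Zfp184 had a peak in replicate 2 alone, with a fold of 4.14.

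The 5 genes marked with the Cell Signaling antibody alone had weak peaks in most cases. Hist1h1t, the testis linker histone, had folds of 4.997 and 8.36 in replicates 1 and 2, at percentiles of 6.03 and 8.10. Within 1 kb of its start, 75 and 732 bases lay under peaks. Hist1h4j had 7.69 and 11.8, and Hist1h4n had 6.15 and 14.2. Hist1h2bm, an H2B gene, stood higher with 19.2 and 16.4. Hist1h1d, a linker histone gene, had 17.3 and 31.3, but its annotated start lies 1828 bases from its start codon. In a window around that start codon it had a peak in the Active Motif library too, with a fold of 10.2, so its state depends on the annotated start.

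The 7 unmarked genes fell into 2 kinds. Hist1h2bq, Hist1h2ao, Hist1h2ap and Hist1h2br are H2A and H2B genes of the first Hist1 block, and not 1 window of 50 or 150 bases within 1 kb of their starts occurs once in the genome. They form a mirror-image duplication in which Hist1h2bq, Hist1h2ao and Hist1h4m are followed by Hist1h4n, Hist1h2ap and Hist1h2br. Hist1h2bq shares 99.9% of its 50-base windows with Hist1h2br, and Hist1h2ao shares 98.5% with Hist1h2ap. The methods name a filter on mapping quality, stated for the ATAC-seq reads, and how many reads it left at these 4 promoters was not tested. A missing mark and missing reads cannot be told apart there. Hist1h4m and Hist1h4n, the H4 genes in the middle of the duplication, had 7.02% and 8.04% unique 50-base windows, and their peaks covered 192 and 0 of 2001 bases in the Active Motif library.

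The remaining 3 unmarked genes lay in mostly unique sequence. Hist3h2ba was described above. Hist1h2ba and Hist1h2aa are the testis-type H2B and H2A genes, a head-to-head pair at the far end of the second block, and 92.9% of the 50-base windows around them were unique. No base within 1 kb of either start was under a peak in any library. Upstream of Hist1h2ba their promoter, printed above, holds 4 CCAAT boxes, 1 octamer, 1 TATA box and 1 AC box. All 3 testis-type genes were thus unmarked or, in the case of Hist1h1t, near the bottom of the scale.

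**Figure D3:**
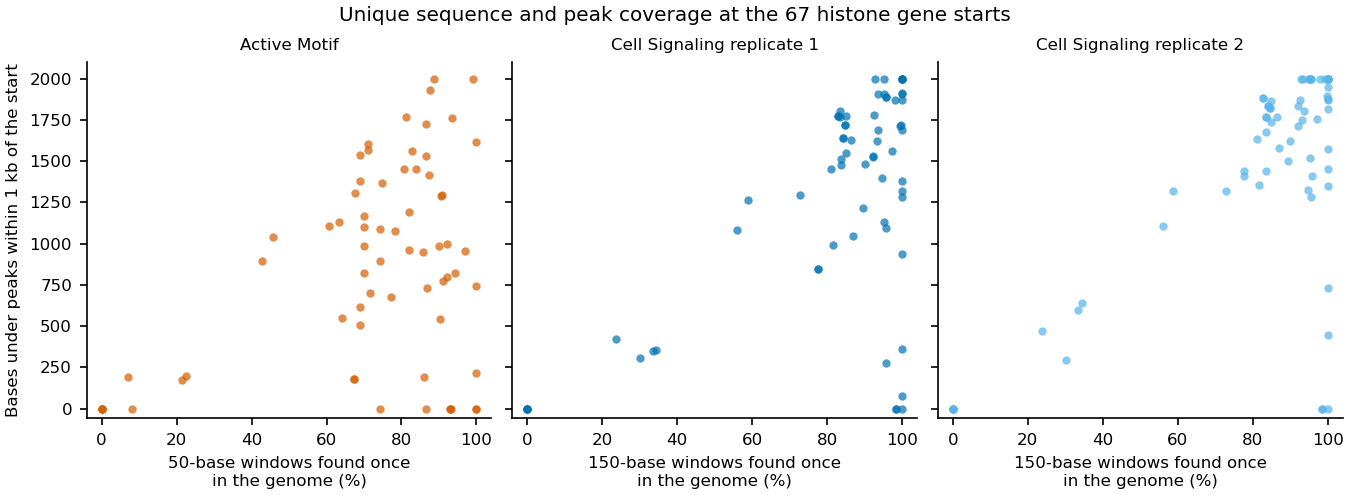
Bases under peaks within 1 kb of each histone gene's start (y axis) against the percent of 50-base (Active Motif) or 150-base (Cell Signaling) windows around the start found once in the genome (x axis), with 1 point per gene for all 67. The 4 genes at 0% have 0 bases in every library, whereas genes with mostly unique windows reach from 0 to 2001 bases.

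Unique sequence and peak coverage could be set side by side base by base. Around the 67 starts, 76.1% of the 100265 bases were the centre of a unique 50-base window and 85.3% of a unique 150-base window. In the Active Motif library, whose reads were the shorter ones, 48.6% of the unique bases at 50 were under a peak and 14.8% of the repeated ones. At 150 bases, 72.9% of the unique bases were under a peak in replicate 1 and 8.63% of the repeated ones, and in replicate 2 the values were 82.5% and 13.9%. How far repeated sequence lowers the fold of single genes was not tested.

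The shape of the acetylated region differed from that at other genes. Over genes with a promoter peak, the start itself was under a peak in 36 of 55, 53 of 60 and 55 of 60 histone genes, beside 62.8%, 78.3% and 83.8% of all genes. At 200 bases after the start only 15 of 55 (27.3%), 24 of 60 (40%) and 34 of 60 (56.7%) histone genes were covered, beside 71.9%, 75.7% and 86.3% of all genes. At 500 bases the counts rose again to 31, 46 and 55. The gap at 200 bases lay in the coding sequence, since the median histone gene was 539 bases long and 62 of 67 had transcripts of 1 exon only.

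Repeated sequence moved with this gap. At 200 bases, 6 of 40 genes were covered in the Active Motif library where the surrounding 50 bases were repeated, and 9 of 15 where they were unique. With 150 bases the counts were 2 of 26 against 22 of 34 in replicate 1 and 4 of 26 against 30 of 34 in replicate 2. At the start itself 36 of 52 unique positions were covered in the Active Motif library, 53 of 60 in replicate 1 and 55 of 60 in replicate 2. Among unique positions the share at 200 bases was thus lower than at the start by a wide margin in replicate 1 alone, and close to it in replicate 2. How much of the gap repeated sequence accounts for was not tested. Upstream of the start the histone genes had the wider mark. Within the 1 kb before the start the median gene had 694, 890.5 and 960.5 acetylated bases, beside 375, 545.5 and 652 over all genes. Within the 1 kb after it the medians were 456, 771.5 and 869, beside 624, 789 and 890.

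**Figure D4:**
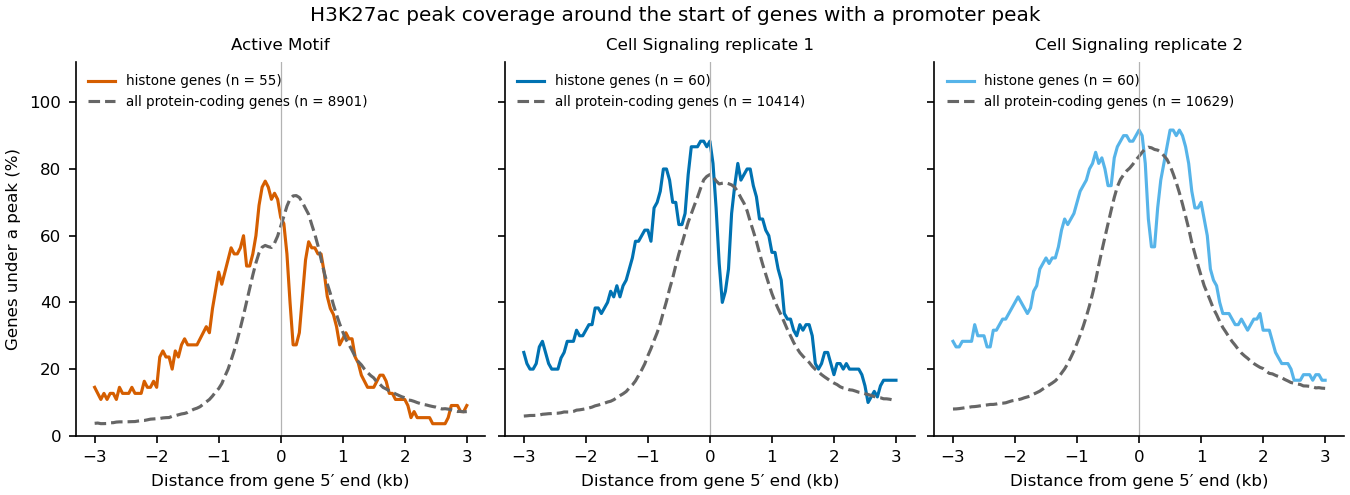
Percent of genes with the position under an H3K27ac peak (y axis) by distance from the 5′ end in kb along the direction of transcription (x axis), for histone genes (solid) and all protein-coding genes (dashed) with a promoter peak in that library. Histone genes dip to 27.3%, 40% and 56.7% at 200 bases after the start, where all genes have 71.9%, 75.7% and 86.3%.

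By class, H4 genes stood lowest. Among genes with a peak, H4 had the lowest median percentile in every library, 40.1, 44.8 and 50.7, whereas H2A had 64.7, 73.7 and 76.7, H2B 62.5, 73.7 and 72.6, and H3 61.8, 62.3 and 75.4. Within H4 the range was wide, since Hist1h4h and Hist2h4 had the highest mean percentiles of all histone genes and Hist1h4k and Hist1h4j were among the weakest. All 12 H3 genes had a peak in all libraries, and so did 11 of 13 H4, 15 of 18 H2A, 13 of 18 H2B and 4 of 6 H1 genes.

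Linker histone genes were marked in at least both Cell Signaling libraries. Hist1h1c was described above. Hist1h1a had folds of 20.9, 32.3 and 45.8 in the Active Motif library, replicate 1 and replicate 2. The values 20.9 and 45.8 were also those of its neighbours Hist1h4a and Hist1h3a in the same libraries. The start of Hist1h1a itself was under no peak in the Active Motif library or replicate 1. Hist1h1b had 15.3, 24.6 and 40.8. Hist1h1e had 11.8, 26.4 and 45.4. The annotated start of Hist1h2be, an H2B gene, lies under the same peak and 35138 bases from its start codon, so this peak stands for Hist1h2be in all counts above. Around its start codon Hist1h2be had folds of 17.9, 37.3 and 44.3. Hist1h1a, Hist1h1b, Hist1h1c and Hist1h1e stood at mean percentiles from 69.7 to 94.9. Over the Cell Signaling libraries alone, Hist1h1d stood at 52.8 and the testis gene Hist1h1t at 7.06. Where the summit had to lie within the promoter window, Hist1h1a, Hist1h1b and Hist1h1e no longer had a peak in all libraries.

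In the coding sequence the classes parted further. Over genes with a peak in all libraries, the median H3 gene had 0% of its coding bases under an Active Motif peak, and 7 of the 12 H3 genes had none. The H3 medians in replicates 1 and 2 were 33.8% and 40.5%. The median H4 gene had 81.7%, 100% and 100%. Unique 50-base windows made up a median of 25.2% of the H3 and 39.1% of the H4 coding sequence, and unique 150-base windows 60.7% and 83.7%. The H1 coding sequences were almost fully unique (medians of 89.9% and 100%). Hist1h1a and Hist1h1b had no coding base under a peak in the Active Motif library, where their starts were not under a peak either. Hist1h1a had no coding base under a peak in replicate 1 as well.

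**Figure D5:**
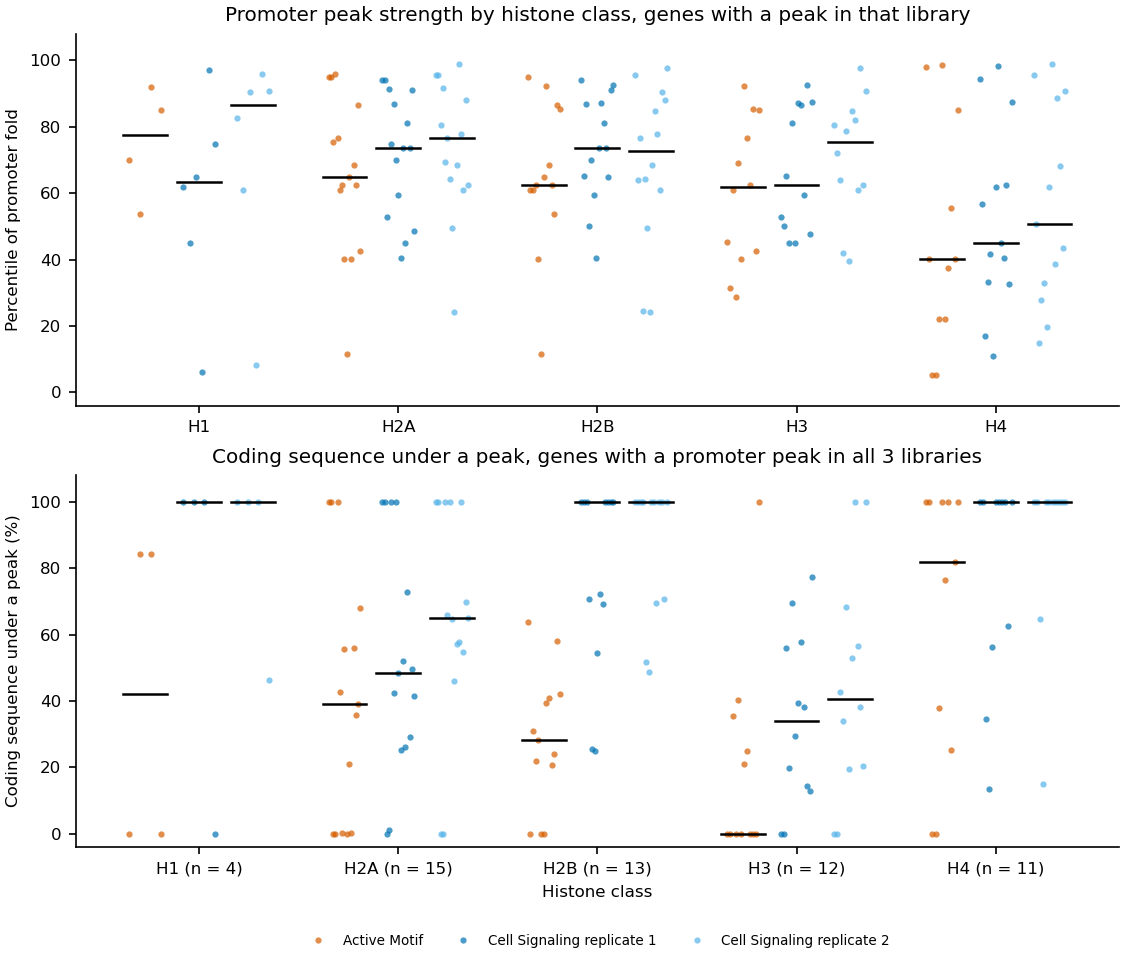
Histone classes (x axis) with 1 point per gene and library and black bars at the medians. The upper panel gives the percentile of the promoter fold, where H4 has the lowest medians (40.1, 44.8 and 50.7), and the lower panel the percent of coding bases under a peak, where the H3 median is 0% in the Active Motif library.

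Head-to-head pairs were common. In 13 pairs, holding 26 genes, the starts faced away from each other at 176 to 660 bases, with a median of 268. There were 12 pairs of an H2A and an H2B gene and 1 of an H2B and an H3 gene, Hist1h2bh and Hist1h3f. A peak was found at both genes in 10 pairs and at neither in 3, and in no pair at 1 gene alone. At such distances the promoter windows of a pair overlap, so that this count is largely set by the definition. A single peak reached over both starts in 8 of the 10 in the Active Motif library and in all 10 in either replicate. In the other 2, Hist1h2ah with Hist1h2bk and Hist1h2ag with Hist1h2bj, Active Motif peaks covered 59.4% and 58.7% of the bases between the starts. Paired genes with a peak had median percentiles of 63.6, 77.3 and 72.6, and unpaired ones 61.0, 60.5 and 70.8.

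Promoter motifs followed the class. From 250 bases before to 50 bases after the start, CCAAT on either strand was present in 56 of 67 histone promoters (83.6%), beside 38.9% of all protein-coding promoters. All 18 H2A and all 18 H2B promoters held it, but only 4 of 13 H4 promoters. The octamer was present in 15 (22.4%), beside 1.59%, and only in H2A and H2B promoters, with 7 and 8. Genes of a head-to-head pair share promoter bases, so 1 match can count for both genes. The single octamer between Hist2h2ac and Hist2h2be was counted in this way. The motif counts are thus not counts of separate matches. TATAAA was found in 37 (55.2%), beside 12.7%. GGTCCG was present in 12 of 13 H4 promoters and in 3 others, in all 15 (22.4%) beside 9.69%. AAACACA was found in 4 of 6 H1 promoters, in each of them 113 to 117 bases before the start as the first base read on the gene's strand, and in 9 histone promoters in all (13.4%) beside 6.44%.

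The motifs were present in marked and in unmarked genes. CCAAT was present in 47 of the 55 genes with a peak in all libraries and in all 7 unmarked genes. TATAAA was in 31 of 55 and in all 3 unmarked genes outside the duplication, and the octamer in 12 of 55 and in 2 of those 3. The last 2 were Hist1h2ba and Hist1h2aa, a pair that shares 1 octamer. All motif counts are counts of letters in a window, and say nothing on binding. Hist1h4h and Hist1h4j, at the top and near the bottom of the H4 genes, both hold GGTCCG in the sequences printed above, and only Hist1h4j holds TATAAA.

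Histone promoters were poorer in CpG than other marked promoters. The 55 genes with a peak in all 3 libraries had a median of 11 CpG in this window, whereas the 8883 protein-coding genes with a peak in all libraries had 20. Genes without a peak in any library had a median of 4 over all genes and 17 over the 7 histone genes, of which the 4 duplicated ones all had 17. Over all 67 histone genes and over all 21755 genes the median was 11 alike. CpG counts ranged from 0 at Hist1h1d, whose annotated start is far from its coding sequence, to 43 at Hist2h2aa2, an H2A gene.

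The stem-loop at the mRNA's end was looked for as a perfect inverted repeat of 6 bases around 4, within 150 bases after the stop codon. It is shown because the part of the stem that varies separates H4 from the other classes. The most frequent forms, as DNA on the coding strand with the stem in capitals, were these.
Other classes: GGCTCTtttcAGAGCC
H4: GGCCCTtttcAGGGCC
H4, rarer: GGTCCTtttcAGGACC

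The stem GGCTCT was found in 52 of 67 genes, namely in all 6 H1, 17 of 18 H2A, 17 of 18 H2B and all 12 H3 genes, and in no H4 gene. All 13 H4 genes had another stem, GGCCCT in 11 and GGTCCT in Hist1h4j and Hist1h4b. Hist2h2be and Hist1h2an had none of the 3, and Hist1h2an had the common form with 1 base of the stem changed. In the 52 genes with GGCTCT the repeat started 22 to 59 bases after the stop codon, with a median of 31. The 7 unmarked genes, testis-type genes included, all had the GGCTCT stem.

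Of 3 pseudogenes with histone symbols, Hist3h2bb-ps lay under the peak of Hist3h2a. Hist1h2aj, next to Hist1h2bm, had folds of 19.2 and 16.4 in the Cell Signaling replicates, the values of Hist1h2bm. Hist1h2al, on chromosome 13 outside both blocks, had none.

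Genes that regulate, package or process these histones were marked in most cases. Of 11 genes for histone gene transcription, 9, 11 and 11 had a promoter peak in the Active Motif library, replicate 1 and replicate 2, beside 40.9%, 47.9% and 48.9% of all protein-coding genes. Npat, the organizer of histone locus bodies, had low folds of 4.69, 15.8 and 10.5, and Casp8ap2, its partner in those bodies, had 14.1, 33.4 and 34.2. Of 13 genes for the processing and decay of histone mRNA, 11, 13 and 13 were marked, and Slbp, which binds the stem-loop, had folds of 11.5, 37.3 and 39.6. Of 14 histone chaperones 12, 14 and 14 were marked. The replication-coupled chaperone genes Asf1b and Chaf1b lacked an Active Motif peak, with folds of 5.38 and 14.96 at Asf1b and 5.23 and 10.2 at Chaf1b in replicates 1 and 2. Chaf1a, the gene of another subunit of the same chaperone as Chaf1b, was marked in all libraries with 10.2, 13.2 and 23.6.

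Of 11 replication-independent variants, whose genes lie outside the clusters and are used throughout the cell cycle, 8, 9 and 9 were marked, beside the same 40.9%, 47.9% and 48.9%. H3f3b, encoding the H3 variant deposited outside replication, had folds of 21.1, 64.6 and 52.5, and H2afz had 13.1, 25.8 and 36.2. H2afy2 and H1fx had no peak in any library. The median percentiles of these variants were 53.3, 49.1 and 49.9, beside 62.5, 65.3 and 70.8 for the clustered genes.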

How the data were processed

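HT-ChIPmentation tags chromatin fragments with a transposase on antibody-bound beads. Per the study's methods, stated for its ATAC-seq reads and applied here with input controls, the authors trimmed adapters with Cutadapt, aligned read pairs to mm10 with Bowtie2, removed duplicates and pairs of low mapping quality with Picard and SAMtools, and called peaks per library with MACS3 at a q-value of 0.05. For the Cell Signaling samples the submitters' processing notes also list bcl2fastq 2.20.0.422. The deposited lists give for each peak a score, the fold enrichment ratio at its summit and the −log10 of its p- and q-values. Reads with several equal places in the genome usually get a low mapping quality. Read totals per library are listed by the study but not in the peak lists, and were not used here.

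Here, protein-coding genes on 20 chromosomes (41249 starts of the basic GENCODE vM21 annotation) were given a promoter peak when a peak overlapped 1 kb on either side of a start. Fold and q-value were taken from the strongest peak, and nothing was pooled or rescaled. A gene's percentile is its place among all genes with a promoter peak in that library. Clusters were split where members lay over 250 kb apart. Windows of 50 and 150 bases within 1 kb of each 5′ end were counted on both strands of the 66 sequences of the primary assembly (Python 3.11.15, NumPy 2.4.6, Numba 0.67.0), and sequence matching was done with Biopython 1.88. Coding sequence runs from start to stop codon. The overlap, window and motif steps were tested on simulated data with planted peaks and repeats.

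The Active Motif library (1) and the Cell Signaling libraries (2) were grouped by the antibody in the labels. The inputs were used by the authors' peak caller and not analysed further. No test was run. In each cluster the 3 genes with the highest and the 3 with the lowest mean percentile among those marked in all 3 libraries, every gene marked in part, every unmarked gene, the testis-type genes and all H1 genes are named. Members and gene lists were chosen with earlier results of these data known. Alternatives were a stricter q-value, equal peak numbers, windows of 500 and 250 bp, summits, other start sites, other cluster limits and leaving out each library. The window at the start codon and the count without the 4 duplicated genes were added after seeing the data.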

Additional observations from a re-analysis of the deposited data

How the results depend on the processing

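No paired analysis was possible because no test was made and the antibody groups share only 1 replicate number. The counts of histone genes with a peak in each library and in all 3 libraries stayed within 1.5 times of the reported ones under every alternative run, at 49 to 56 genes in the Active Motif library, 55 to 60 in replicate 1 and 54 to 60 in replicate 2. The count in all 3 libraries was 49 to 56, and 55 to 60 when a library was left out in turn. With a window of 250 bp the genes without any peak rose from 7 to 11, adding Hist1h1d, Hist1h1t, Hist2h3c1 and Hist2h3c2. Without the 4 genes that have no unique 50-base window they fell to 3. When a library was left out in turn they numbered 7.

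Split at 50 kb, the share of acetylated bases (Active Motif, replicate 1, replicate 2) was 5.54%, 12.2% and 16.2% from Hist1h2bl to Hist1h2br, 14.5%, 41.1% and 53.3% from Hist1h2ah to Hist1h2bj, 18.7%, 30.4% and 34.1% from Hist1h4h to Hist1h1e, 19.2%, 31.6% and 36.9% from Hist1h2ac to Hist1h1a, and 0%, 0% and 0% from Hist1h2ba to Hist1h2aa where no peak lies. In all, 82 of 99 alternative values stayed within 1.5 times of the reported value. The main limits are 1 library per antibody for Active Motif, repeated sequence at the genes and peaks shared by neighbours. The reads behind single peaks were not given in the lists, and a missing peak is not evidence that the mark is absent.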
